A study of Mus musculus with 87 samples.

Results

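The genes described here are 10 genes of mouse liver whose transcripts depend on Wnt signalling in the hepatocytes around the central vein: Axin2, Rnf43, Znrf3, Lgr5, Tbx3, Glul, Oat, Cyp1a2, Cyp2e1 and Lect2. They were taken by symbol from a table of 37991 genes, and all 10 were above the detection threshold used here, a log2 RPKM of −1.5 in at least 1 library, as were 15396 genes in all. RPKM is a read number scaled by the length of a gene's exons and by the mapped reads of the library. Poly(A)-selected RNA of single livers was measured by RNA-Seq after partial hepatectomy (PH, surgical removal of most of the liver mass, labelled X), after sham surgery with the same steps but no resection (S), and in livers of mice that were not operated on (C). The mice were C57BL/6 males, 12 to 14 weeks old at the time of surgery, kept on a fixed light cycle with food given only in the dark. Surgery was done at Zeitgeber time (ZT) 2, where ZT0 is lights on.

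The 80 libraries analysed fell into 19 groups, and each group is named by its letter and its hours after surgery. The C0 group held 9 livers taken at 0 h at ZT2. After PH, X1, X10, X20 and X36 held 6 livers each, X48 held 5, and X4, X28, X44 and X72 held 3 each. Later livers were taken at 1 week (X1W, 3 livers) and at 4 weeks (X4W, 2 livers). After sham surgery, S1 held 6 livers, S4 held 5, and S10, S20 and S48 held 3 each. Unoperated livers were also taken at ZT6, the clock time of X4, S4 and X28 (C4, 3 livers), and beside the 4-week group (C4W, 2 livers).

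In the resting liver, endothelial cells of the central vein release Wnt ligands and R-spondin 3, and the hepatocytes next to them accumulate beta-catenin, which binds TCF/LEF factors and turns on the pericentral programme. Axin2, Rnf43 and Znrf3 are feedback inhibitors that the pathway induces against itself, Lgr5 is a receptor for R-spondins, and Tbx3 is a transcription factor of the pericentral hepatocytes. Glul (glutamine synthetase) and Oat (ornithine aminotransferase) clear ammonia and handle ornithine in the last rows of cells before the vein, Cyp1a2 and Cyp2e1 are cytochrome P450 enzymes that oxidise drugs and other foreign compounds, and Lect2 is a secreted protein made by hepatocytes.

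Because TCF/LEF factors act through a short core motif, the promoters of the genes were searched for it. The windows were the RefSeq sequences of assembly GRCm38.p6 from 250 bases before to 50 bases after each start, and 7 of the 10 genes had at least 1 window, with 8 windows in all. The core CTTTG, when followed by AT or AA and when followed by TT or TA, was searched for on both strands. At least 1 match was found in 3 of the 8 windows, against 16.9% of the 32851 windows of all genes. The 3 stretches with a match are shown 5′ to 3′ on the strand of the gene, with the match in capitals. They lie at chr7:140763664-140763710 on the plus strand (Cyp2e1, match starting 135 bases before the start), chr9:57683873-57683905 on the minus strand (Cyp1a2, 244 bases before) and chr13:56548544-56548590 on the minus strand (Lect2, 32 bases before).
Cyp2e1: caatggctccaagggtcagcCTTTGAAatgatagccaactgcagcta
Cyp1a2: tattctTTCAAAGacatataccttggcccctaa
Lect2: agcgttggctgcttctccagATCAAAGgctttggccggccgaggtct
In the Cyp2e1 stretch the letters read along the gene's strand, and in the Cyp1a2 and Lect2 stretches they read on the opposite strand. The windows of Glul, Oat, Axin2 and Rnf43 held none of these letters.

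Depth was estimated from the values at between 12.2 and 49.0 M (mega) reads per library, with a median of 26.8 M. Markers of hepatocytes (8 of 8 detected) summed to between 24800 and 57493 RPKM, and none of the 8 was at 0 in any library. Macrophage markers (7 genes, none at 0) summed to 148 RPKM in C0 replicate 8 and to between 9.44 and 30.0 RPKM in the other C0 livers. In bulk liver, fewer cells of a type and less RNA per cell cannot be told apart. Groups came from different experimental periods of the study (X28, X44, X48, X72, X1W and S48 from 1 of them, S10, S20, C4W and X4W from another, C4 from yet another), and the replicate numbers are not tied to periods, so period and group cannot be told apart in comparisons that cross them.

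At rest the genes spanned more than 3 orders of magnitude per exon length. In C0 the mean level was 11.26 ± 0.25 log2 RPKM (SD, n = 9) for Cyp2e1, 8.23 ± 0.15 for Cyp1a2, 7.67 ± 0.46 for Oat, 7.62 ± 0.40 for Glul and 6.24 ± 0.23 for Lect2. The regulators were far lower, with mean levels of 1.48 ± 0.69 log2 RPKM for Tbx3, 0.37 ± 0.44 for Rnf43, −0.13 ± 0.47 for Axin2, −0.19 ± 0.23 for Znrf3 and −1.42 ± 0.41 for Lgr5. The C0 libraries did not overlap between Cyp2e1 and Cyp1a2, between Glul and Lect2, between Lect2 and Tbx3, or between Znrf3 and Lgr5, while every other pair of neighbours in this order overlapped. Lgr5 was the least abundant of the 10, above the threshold in 51 of 80 libraries, and its lowest library held about 18.3 estimated reads.

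Axin2 (chr11:108781663-108812097 of mm9, plus strand), which encodes a scaffold of the complex that destroys beta-catenin, fell within 1 h of either operation and peaked 20 h after PH. In C0 its level ran from −1.23 to 0.47 log2 RPKM with a median of −0.07. In X1 it ran from −2.70 to −1.32 with a median of −1.62, below every C0 library, and in S1 from −2.07 to −0.24 with a median of −1.05. The difference from C0, on the log2(RPKM + 0.25) scale used for every test below, was −1.08 ± 0.15 (SE) in X1 (limma with Benjamini-Hochberg adjustment over all genes, adjusted p = 3.07e-08) and −0.71 ± 0.15 in S1 (adjusted p = 3.07e-04). By 20 h the level in X20 was between 0.75 and 1.91 log2 RPKM with a median of 1.57, and every X20 library was above every C0 library. The difference of X20 from C0 was 1.40 ± 0.15 (adjusted p = 4.90e-12). The 3 S20 livers were at 0.81, 0.60 and 0.26 log2 RPKM, with those at 0.81 and 0.60 above every C0 library. S20 was called higher than C0 by 0.56 ± 0.19 (adjusted p = 0.0230). That call was lost with some 1 library left out (adjusted p from 0.0555 to 0.167) and with every library at the same median (0.44, adjusted p = 0.0743). X20 and S20 were taken at ZT22 and C0 at ZT2, so their differences from C0 hold a difference in clock time as well. PH exceeded sham at 20 h by 0.84 ± 0.20 (adjusted p = 0.00278), a call that was lost in a fit of X20 and S20 alone (adjusted p = 0.0589), and it was 1.12 with X20 replicates 1 to 3 and 0.56 with replicates 4 to 6. At 28 h the 3 livers were at 0.97, 0.70 and 0.79 log2 RPKM, still above all 9 C0 livers (difference 0.78 ± 0.19, adjusted p = 5.37e-04), and by 72 h they were at −0.28, −0.22 and 0.23, inside the C0 range.

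Rnf43 (chr11:87476224-87549041, plus strand), a membrane ubiquitin ligase that removes Wnt receptors from the cell surface, had the widest range of group means of the 10 genes, 3.46 log2 units between X4 and X36. The C0 livers ran from −0.27 to 1.21 log2 RPKM (median 0.46). All 6 X1 livers, from −1.48 to −0.82, and all 6 S1 livers, from −2.01 to −0.41, were below them. The differences from C0 were −1.12 ± 0.18 for X1 (adjusted p = 1.51e-06) and −1.22 ± 0.18 for S1 (adjusted p = 8.77e-07). At 4 h the 3 PH livers were at −2.05, −1.25 and −1.72 log2 RPKM and the 5 sham livers at −0.89, −0.55, 0.12, −1.15 and −0.71, so that every X4 liver lay below every S4 liver. The PH minus sham difference of −0.67 ± 0.25 did not pass the test (adjusted p = 0.0636). The 3 unoperated livers of the same clock time were at 1.07, 0.66 and 1.34 log2 RPKM, and X4 fell below C4 by 2.01 ± 0.28 (adjusted p = 1.22e-08) and S4 by 1.34 ± 0.25 (adjusted p = 6.97e-06). From this low the level climbed above that of C0, to between 0.61 and 2.48 log2 RPKM in X20 (median 1.72) and between 1.64 and 1.94 in X36 (median 1.80). The C4 livers and the unoperated C4W livers, at 1.55 and 1.57, lay inside the X20 range and below the X36 livers. The difference from C0 was 1.17 ± 0.18 at 20 h (adjusted p = 1.86e-07) and 1.26 ± 0.18 at 36 h (adjusted p = 1.47e-08). All 6 X36 livers were above the highest C0 liver. In S10 the difference from C0 was 0.64 ± 0.23 (adjusted p = 0.0174). In S20 it was 0.74 ± 0.23 (adjusted p = 0.0133), so the sham livers rose as well. Both sham calls were lost with some 1 library left out. At 20 h PH minus sham was 0.43 ± 0.245 (adjusted p = 0.255) and the livers overlapped. A rise specific to PH was therefore not shown at 20 h. X20 and X36 also differed from C0 in clock time, and no sham livers were taken at 36 h.

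Znrf3 (chr11:5176327-5344850, minus strand), the paralogue of Rnf43 with the same action, moved less. At 4 h the X4 livers were at −1.32, −0.81 and −0.97 log2 RPKM and the S4 livers at −1.11, −0.61, −0.84, −0.74 and −0.56, against 0.43, 0.02 and 0.19 in C4. Both operated groups were below all unoperated livers of that hour, with a difference from C4 of −0.93 ± 0.18 for X4 (adjusted p = 1.03e-05) and of −0.75 ± 0.16 for S4 (adjusted p = 4.84e-05). At 20 h the X20 livers ran from −0.02 to 1.01 log2 RPKM with a median of 0.28, all above the S20 livers at −0.44, −0.07 and −0.54. The PH minus sham difference was 0.59 ± 0.15 (adjusted p = 0.00634). It rested on few livers, since leaving out S20 replicate 1 gave an adjusted p of 0.0508, and without X20 replicate 3 the difference dropped below the fold limit (adjusted p = 0.0257). It was 0.82 with X20 replicates 1 to 3 and 0.37 with replicates 4 to 6. The call was also lost in a fit of X20 and S20 alone.

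Lgr5 (chr10:114887367-115024836, minus strand) was the gene whose PH and sham courses separated first in 1 direction and then in the other. The C0 livers ran from −2.05 to −0.77 log2 RPKM (median −1.36). At 10 h the X10 livers ran from −3.92 to −2.01 with a median of −2.97, while the S10 livers were at −1.19, −1.33 and −1.23, so all 6 PH livers lay below all 3 sham livers. The PH minus sham difference was −0.78 ± 0.19 (adjusted p = 0.00321), on a scale where the added 0.25 RPKM dampens changes of so low a gene. At 20 h the X20 livers had risen to between −0.76 and 0.39 log2 RPKM, and the S20 livers, at −0.52, −0.87 and −1.28, overlapped them. PH minus sham was then 0.45 ± 0.19 and was not called (adjusted p = 0.102). At 44 h the level after PH was highest, at 0.35, 0.23 and −0.14. X20 and X44 were taken at ZT22 and C0 at ZT2, so differences from C0 hold a difference in clock time as well. The difference from C0 was 0.79 ± 0.14 at 20 h (adjusted p = 3.01e-06) and 1.11 ± 0.18 at 44 h (adjusted p = 2.03e-07), the latter 0.72 with every library at the same median (adjusted p = 3.87e-04). At 48 h the X48 livers were at 0.35, −0.32, −0.11, −0.64 and −0.62 log2 RPKM against −1.49, −1.48 and −1.93 in S48, without overlap. The PH minus sham difference was then 0.92 ± 0.19 (adjusted p = 8.71e-05). The change of the PH minus sham difference from 10 h to 48 h was itself tested, and it was 1.70 ± 0.27 (adjusted p = 1.15e-06). At 72 h the 3 livers were back at −1.31, −1.28 and −1.22 log2 RPKM.

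Tbx3 (chr5:120120678-120134733, plus strand), a transcriptional repressor of the T-box family, was already variable at rest, from 0.44 to 2.34 log2 RPKM in C0 (median 1.27). It fell within 1 h in both operated groups, to between −0.73 and 0.21 log2 RPKM in X1 and between −0.34 and 0.73 in S1. The differences from C0 were −1.42 ± 0.24 (adjusted p = 2.48e-06) and −1.16 ± 0.24 (adjusted p = 1.89e-04). At 4 h the X4 livers were at 0.38, 1.26 and 0.40 log2 RPKM, the S4 livers at 1.17, 1.97, 3.02, 1.45 and 2.05, and the C4 livers at 2.37, 2.60 and 2.78. PH was below unoperated liver of the same hour by a difference of −1.75 ± 0.37 (adjusted p = 4.64e-05), and below sham by −1.14 ± 0.33 (adjusted p = 0.0115). The latter call was lost without S4 replicate 3 (adjusted p = 0.0779), X4 replicate 4 (0.0776) or X4 replicate 6 (0.0809). The level then peaked at 20 h, between 1.95 and 3.23 log2 RPKM in X20, with the S20 livers at 2.72, 2.73 and 2.08 inside that range. The X20 group was above C0 by 1.20 ± 0.24 (adjusted p = 2.09e-05), and its difference from S20 was 0.24 (95% confidence interval −0.39 to 0.88).

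**Figure D1:**
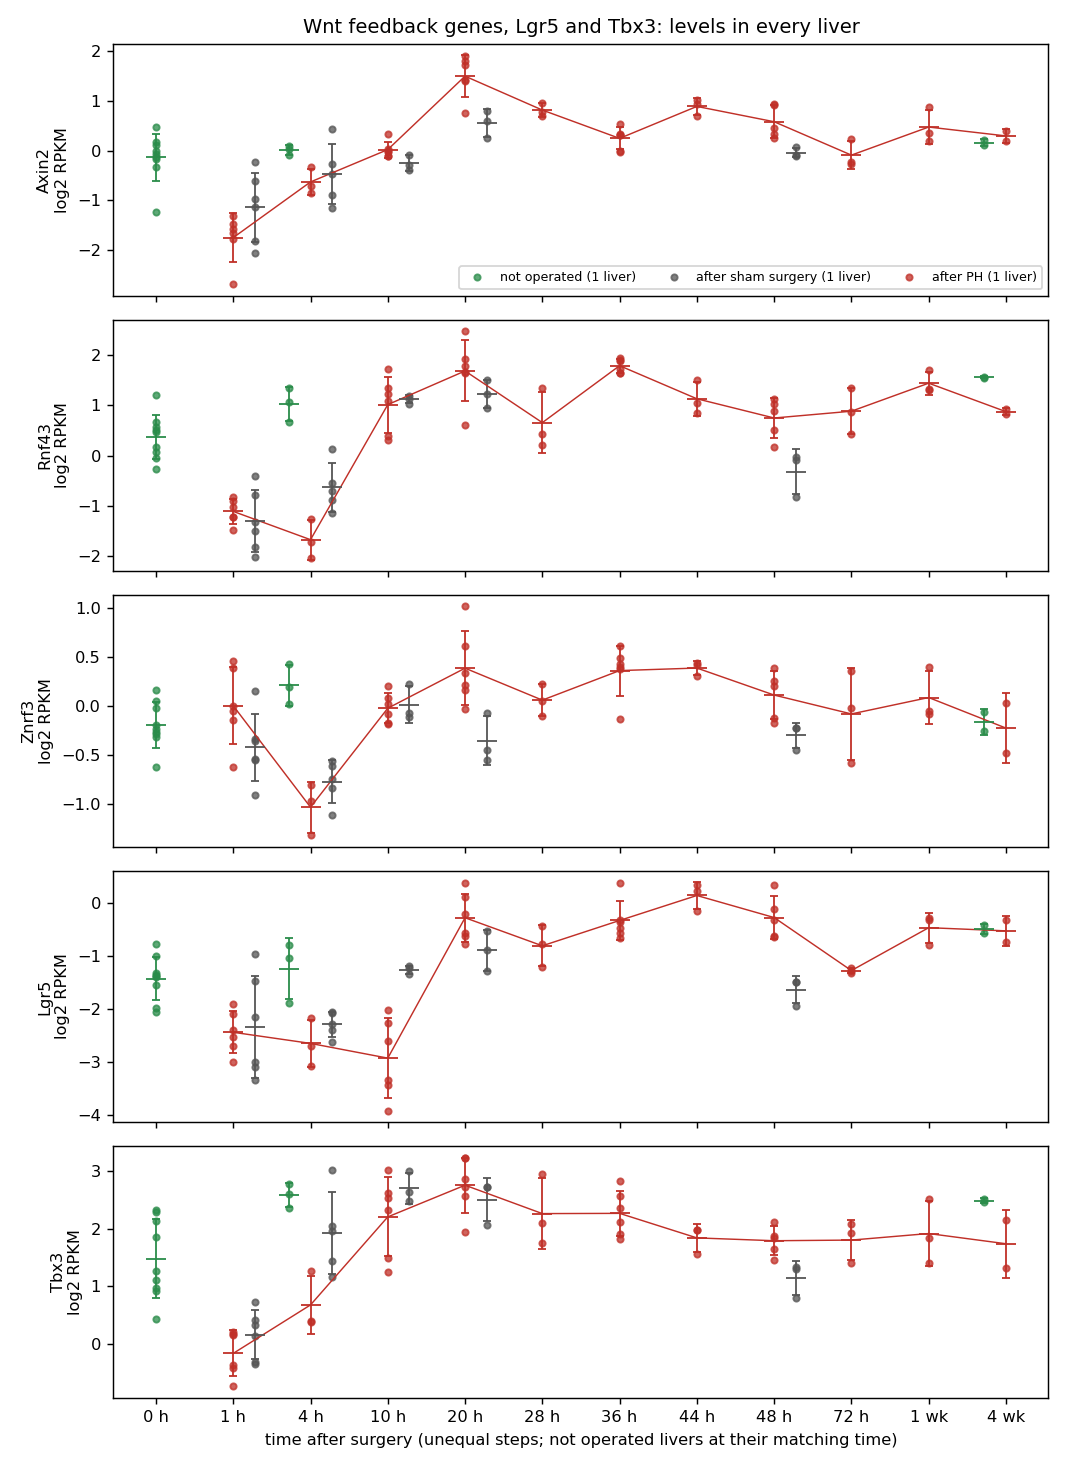
Levels (log2 RPKM, vertical axes) of Axin2, Rnf43, Znrf3, Lgr5 and Tbx3 in every liver against time after surgery (horizontal axis, unequal steps), with the mean as a dash and the SD as bars for each group (C4W and X4W hold 2 livers). Axin2, Rnf43 and Tbx3 are low at 1 h in red (PH) and grey (sham) alike, and the PH livers of Lgr5 lie under the sham livers at 10 h and over them at 48 h.

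Glul (chr1:155747074-155756853, plus strand), the classical marker of the innermost pericentral hepatocytes, rose at 4 h after both operations and had the narrowest range of group means of the 10 genes, 1.38 log2 units. The X4 livers were at 8.60, 8.41 and 8.86 log2 RPKM and the S4 livers at 8.38, 8.51, 8.55, 7.86 and 8.39, while the C4 livers of the same hour were at 7.43, 6.99 and 7.30. All 8 operated livers were above all 3 unoperated ones. Against C4 the difference was 1.38 ± 0.21 for X4 (adjusted p = 1.45e-07) and 1.10 ± 0.19 for S4 (adjusted p = 1.94e-06), and X4 minus S4 was 0.29 (95% confidence interval −0.10 to 0.67). At 10 h the X10 livers, from 7.51 to 7.94 log2 RPKM, were below the S10 livers at 8.07, 8.17 and 8.01. This difference of −0.30 ± 0.19 did not pass the test (adjusted p = 0.335). At 28 h the level was 8.33, 8.09 and 8.00 log2 RPKM, above C4 by 0.90 ± 0.21 (adjusted p = 4.84e-04). PH minus sham was not called at any of the 5 times, and at 48 h it was 0.03 (95% confidence interval −0.35 to 0.42).

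Oat (chr7:139749158-139768081, minus strand), which shares the innermost cells with Glul, had the largest rise of the 10 genes after PH. The C0 livers ran from 6.79 to 8.24 log2 RPKM (median 7.69). The level passed that range at 10 h, between 8.28 and 9.09 log2 RPKM in X10, and was highest at 28 h, at 9.47, 10.16 and 9.86. The difference from C0 was 1.11 ± 0.19 at 10 h (adjusted p = 9.89e-07) and 2.16 ± 0.24 at 28 h (adjusted p = 5.25e-11), and that of X28 from C4 was 1.94 ± 0.30 (adjusted p = 3.28e-07). The sham livers went the other way at 20 h, to 7.16, 6.52 and 6.72 log2 RPKM, while the X20 livers ran from 8.06 to 8.98. PH was higher than sham by 1.71 ± 0.26 at 20 h (adjusted p = 5.63e-06). At 48 h the X48 livers were at 8.78, 8.62, 9.54, 8.82 and 8.74 log2 RPKM and the S48 livers at 7.86, 7.36 and 7.26, with a difference of 1.41 ± 0.27 (adjusted p = 1.58e-05). At 10 h the difference of 0.77 ± 0.26 was called (adjusted p = 0.0389) and was lost without S10 replicate 2 or 3 or X10 replicate 1, 2, 3 or 5 (adjusted p from 0.0513 to 0.281). The S20 fall below C0, a difference of −0.87 ± 0.24 (adjusted p = 0.00601), was lost without S20 replicate 2 (adjusted p = 0.0571).

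Cyp1a2 (chr9:57524744-57531462, minus strand) fell after both operations and was lowest at 20 h. The C0 livers ran from 7.94 to 8.40 log2 RPKM, the X10 livers from 5.92 to 6.81 and the X20 livers from 4.10 to 6.83. The S10 livers were at 6.66, 6.74 and 6.56 and the S20 livers at 6.41, 6.80 and 6.17, so that PH and sham overlapped at both times, and all of these livers were below every C0 liver. Against C0 the difference was −1.80 ± 0.22 for X10 (adjusted p = 1.53e-10), −1.57 ± 0.28 for S10 (adjusted p = 4.30e-06), −2.52 ± 0.22 for X20 (adjusted p = 5.91e-15) and −1.76 ± 0.28 for S20 (adjusted p = 3.37e-06). Since C0 was taken at ZT2, X10 and S10 at ZT12 and X20 and S20 at ZT22, these values hold a difference in clock time as well. PH minus sham at 20 h was −0.76 (95% confidence interval −1.35 to −0.16), which did not pass after adjustment (adjusted p = 0.0815). It was −0.11 with X20 replicates 1 to 3 and −1.40 with replicates 4 to 6. By 1 week the livers were at 7.98, 7.99 and 7.82 log2 RPKM.

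Cyp2e1 (chr7:147949638-147960874, plus strand), the most abundant of the 10 transcripts, fell after PH and was called in none of the sham groups against C0. At 10 h the X10 livers ran from 9.86 to 10.64 log2 RPKM and the S10 livers were at 11.17, 11.26 and 11.11. The C0 livers ran from 10.80 to 11.68, so all 6 X10 livers were below every sham liver of that hour and every C0 liver. PH minus sham was −0.91 ± 0.20 (adjusted p = 0.00147). At 48 h the X48 livers were at 10.22, 10.38, 10.71, 10.09 and 10.07 log2 RPKM and the S48 livers at 11.25, 11.20 and 10.96, again without overlap, with a difference of −0.84 ± 0.21 (adjusted p = 8.42e-04). The lowest level came at 72 h, at 9.43, 9.98 and 9.68 log2 RPKM, with a difference from C0 of −1.56 ± 0.19 (adjusted p = 4.33e-10). At 44 h the fall was also called (difference from C0 −0.975 ± 0.193, adjusted p = 1.46e-05). At 20 h it was −0.53 ± 0.15 (adjusted p = 0.00250), a call lost with some 1 library left out. The fall was shallower at 28 and 36 h. At 28 h the livers were at 10.87, 10.80 and 11.20 log2 RPKM (difference from C0 −0.30 ± 0.19, adjusted p = 0.215) and at 36 h they ran from 10.07 to 11.65. The 5 sham groups differed from C0 by between −0.19 and 0.01, and none was called.

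Lect2 (chr13:56643821-56649899, minus strand) first fell after both operations and was higher after PH than after sham surgery at 48 h. The C0 livers ran from 6.02 to 6.67 log2 RPKM (median 6.19). At 10 h the X10 livers ran from 4.46 to 5.22 and the S10 livers were at 4.95, 4.93 and 4.98, all below C0. The difference from C0 was −1.27 ± 0.13 for X10 (adjusted p = 3.73e-13) and −1.28 ± 0.17 for S10 (adjusted p = 2.50e-09), and PH minus sham was 0.01 ± 0.17. At 36 h the livers ran from 6.74 to 7.10 log2 RPKM, all above the highest C0 liver. At 48 h the X48 livers were at 7.22, 6.72, 7.25, 7.08 and 6.98 log2 RPKM and the S48 livers at 5.87, 6.10 and 6.15. The X48 livers did not overlap the sham livers, with a difference of 1.01 ± 0.18 (adjusted p = 5.45e-06), and X48 was above C0 by 0.81 ± 0.14 (adjusted p = 6.82e-07). With every library at the same median the difference of X48 from C0 was 0.31 (adjusted p = 0.0515), that of X36 0.33 and that of X44 0.24 (adjusted p = 0.226), so the rise above rest was not called under that scaling at these 3 times. The X20 minus S20 difference of 0.62 ± 0.17 (adjusted p = 0.0131) was lost without S20 replicate 3 (adjusted p = 0.128) and in a fit of X20 and S20 alone. It was 0.94 with X20 replicates 1 to 3 and 0.29 with replicates 4 to 6. From 10 h to 48 h the PH minus sham difference grew by 1.00 ± 0.25 (adjusted p = 0.00180).

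**Figure D2:**
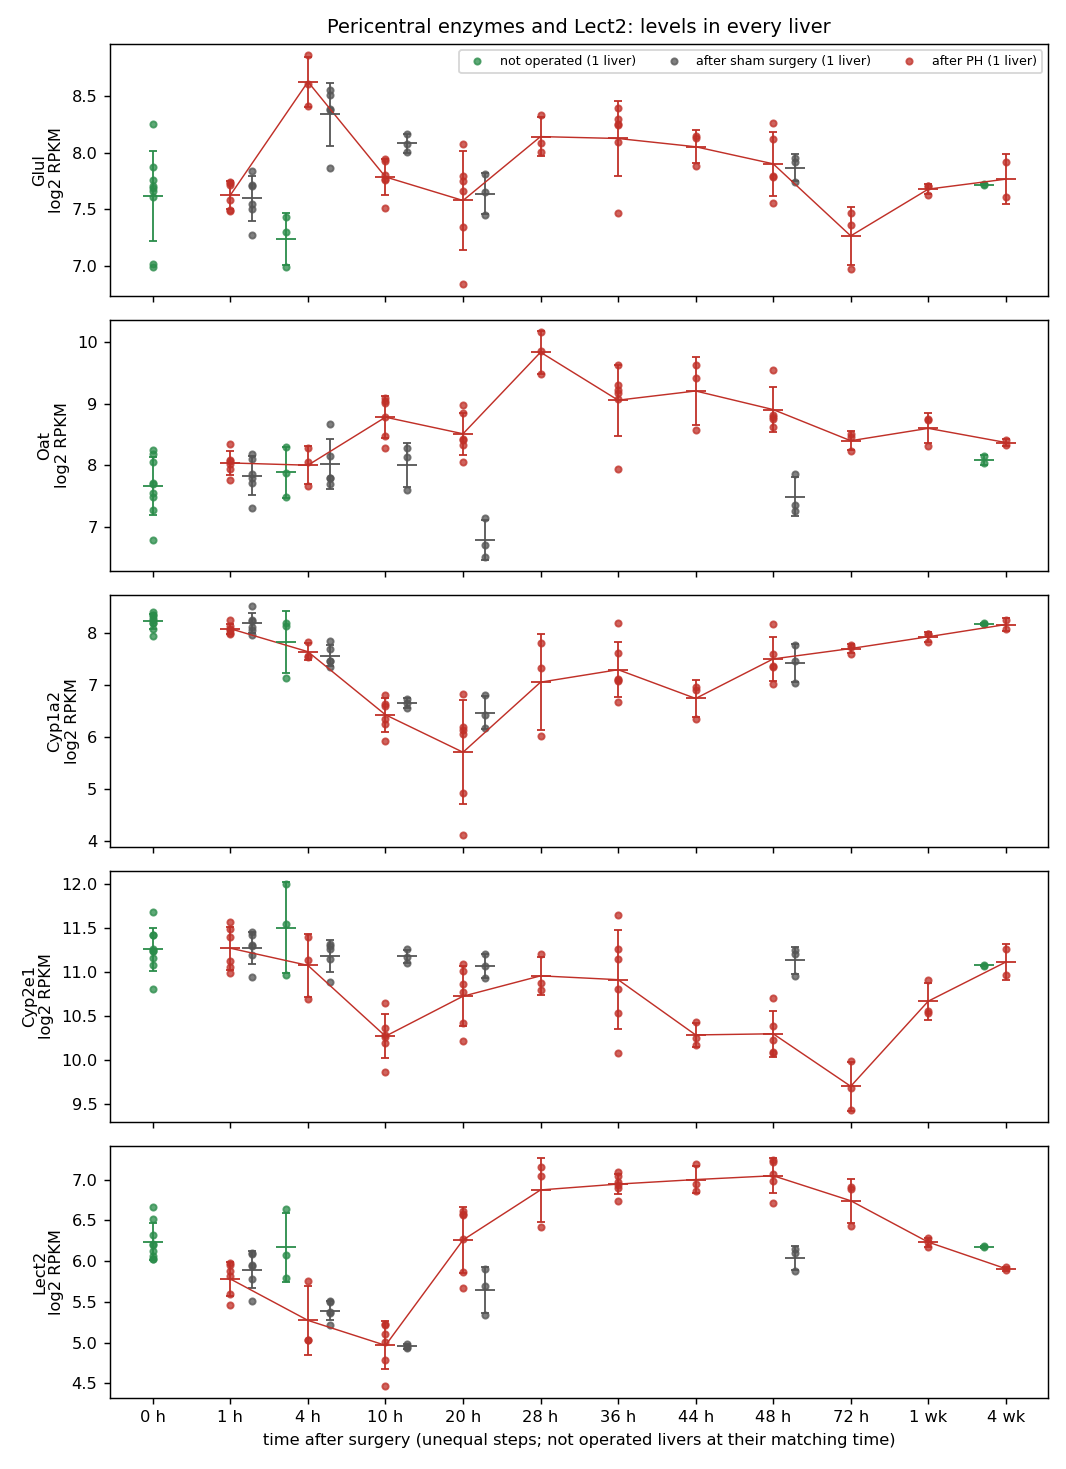
Levels (log2 RPKM, vertical axes) of Glul, Oat, Cyp1a2, Cyp2e1 and Lect2 in every liver against time after surgery (horizontal axis, unequal steps), with the mean as a dash and the SD as bars for each group (C4W and X4W hold 2 livers). Glul is high at 4 h in red (PH) and grey (sham), Cyp1a2 is low at 10 and 20 h in both, and Cyp2e1 falls to 9.43, 9.98 and 9.68 at 72 h in the PH livers.

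Set side by side at the same hour, PH and sham differed in 0 to 3 of these genes up to 10 h and in 4 to 6 of them at 20 and 48 h. A gene counted as called when its adjusted p was under 0.05 and its log2 difference was over 0.5 in size. At 1 h limma called 0 of the 10, with 2 at an unadjusted p below 0.05, in a comparison where 0.624% of all tested genes were called higher in PH and 0.026% lower. At 4 h Tbx3 was called lower, where 3.16% of all genes were called higher and 5.48% lower. At 10 h Oat was called higher and Lgr5 and Cyp2e1 lower, against backgrounds of 3.4% and 3.62%. At 20 h Axin2, Znrf3, Oat and Lect2 were called higher and none lower, against 4.49% and 2.61%. The median difference of the 10 genes was then 0.44, beside 0.07 over all genes. In a fit of X20 and S20 alone, Oat was the only 1 of these genes that kept its call.

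At 48 h Axin2, Lgr5, Rnf43, Oat and Lect2 were called higher in PH and Cyp2e1 lower, against backgrounds of 24.5% higher and 2.69% lower. The median difference of the 10 genes was 0.56, beside 0.27 over all genes, so the whole table leaned towards PH at this time. Once all libraries were brought to 1 median, 38.8% of all calls were higher in PH, against 90.1% in the values as deposited, and the corresponding pair was 43.2% and 63.3% at 20 h and 48.2% and 36.5% at 4 h. Under that scaling 4 of the 10 genes were called at 48 h, a count given without the share of all genes called under it. Lgr5 was higher by 0.58 instead of 0.92, Oat by 0.91 instead of 1.41 and Lect2 by 0.51 instead of 1.01, just past the fold limit, while Cyp2e1 was at −1.33 instead of −0.84. Glul moved from 0.03 to −0.46 (adjusted p = 0.0798). The Axin2 difference at 48 h went from 0.52 ± 0.21 (adjusted p = 0.0343) to 0.11 (adjusted p = 0.745) and that of Rnf43 from 0.87 ± 0.25 (adjusted p = 0.00359) to 0.46 (adjusted p = 0.138). The Axin2 livers were at 0.94, 0.33, 0.93, 0.46 and 0.26 log2 RPKM in X48 and −0.09, 0.07 and −0.10 in S48, and the call was lost without any 1 of S48 replicates 1, 2 and 3 and X48 replicates 1 and 3 (adjusted p from 0.0513 to 0.0966). The Rnf43 livers were at 1.13, 0.88, 1.03, 0.17 and 0.52 log2 RPKM in X48 and −0.83, −0.09 and −0.03 in S48, and that call was lost without S48 replicate 1 (adjusted p = 0.0580).

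**Figure D3:**
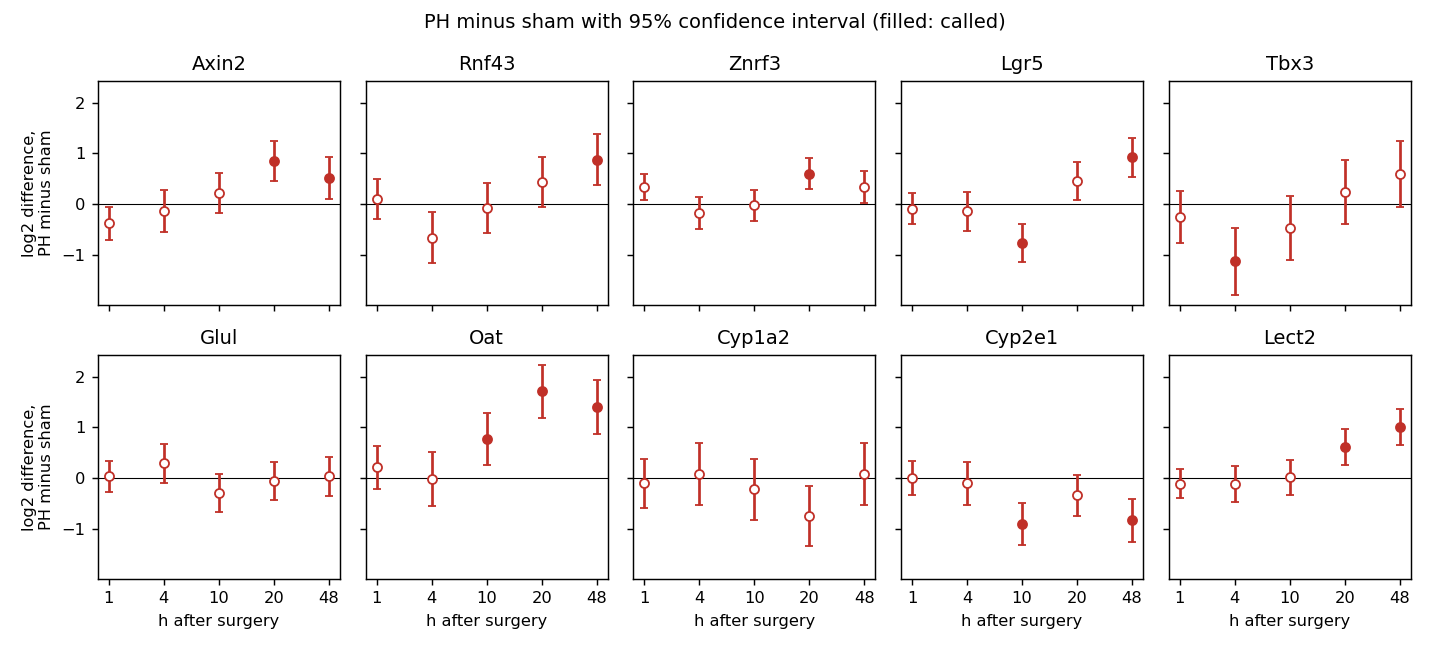
PH minus sham (log2 difference, vertical axis) for each of the 10 genes at the 5 hours with both operations (horizontal axis), with the 95% confidence interval as bars and called differences as filled circles. Oat, Lect2 and Lgr5 end above 0 and Cyp2e1 below it at 48 h, and the Glul interval holds 0 at all 5 times.

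Against the resting livers, where clock time also differs for most groups, the number of the 10 genes called rose and fell with time after PH. It was 4 at 1 h (13.5% of all genes called in either direction), 6 at 4 h (38.2%), 7 at 10 h (36.4%), 7 at 20 h (24.1%), 6 at 28 h (24.9%), 7 at 36 h (35%), 7 at 44 h (39.2%), 6 at 48 h (38.1%) and 3 at 72 h (33.2%), where the share was near that of all genes. All 4 genes called at 1 h (Axin2, Lgr5, Rnf43 and Tbx3) were lower, and at 36 h Rnf43, Lgr5, Tbx3, Glul, Oat and Lect2 were higher and Cyp1a2 was lower. With every library at the same median the 36 h calls numbered 4, since Glul (0.13, adjusted p = 0.475), Tbx3 (0.37, adjusted p = 0.178), Lgr5 (0.48, adjusted p = 0.00214) and Lect2 (0.33, adjusted p = 0.0284) were lost and Cyp2e1 (−0.73, adjusted p = 2.64e-04) was added. Under that scaling the calls numbered 3, 4, 5, 7 and 4 from 1 to 28 h and 4, 3 and 3 at 44, 48 and 72 h. The share of all genes called under that scaling is not given, so these counts cannot be set against a background. After sham surgery the number was 3 at 1 h (7.77% of all genes), 4 at 4 h (34.4%), 4 at 10 h (29.1%), 6 at 20 h (12.1%) and 1 at 48 h (8.88%). The 1 call at 48 h, Cyp1a2 with a difference of −0.81 ± 0.28 (adjusted p = 0.0368), was lost without S48 replicate 2 (adjusted p = 0.235) or 3 (0.0921). These PH and sham values share the C0 libraries. The Lgr5 call at 1 h, a difference of −0.52 ± 0.14 (adjusted p = 0.00234), went under the fold limit without any 1 of C0 replicates 1 and 3 and X1 replicates 1 and 4.

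Unoperated livers gave a comparison at a matched clock time. Between the unoperated groups C4 and C0, 1 of the 10 genes was called, in a comparison with 7.89% of all genes called. It was Tbx3, higher at ZT6 by 1.02 ± 0.30 (adjusted p = 0.0143), a call lost without C4 replicate 2 (adjusted p = 0.0864) or 3 (0.0755). X4 against C4 gave 6 calls (45.6% of all genes) and S4 against C4 gave 5 (43.3%). Glul was higher in both, Rnf43, Znrf3, Lgr5 and Lect2 were lower in both, and Tbx3 was lower in X4. The Lgr5 call in S4, a difference of −0.58 ± 0.19 (adjusted p = 0.00865), was lost without C4 replicate 1 (adjusted p = 0.0872). X28 against C4, also at ZT6, gave 4 calls (32.7% of all genes), all higher, in Axin2, Glul, Oat and Lect2. The Axin2 difference there was 0.68 ± 0.23 (adjusted p = 0.0139), lost without X28 replicate 1 (adjusted p = 0.0550), and that of Lect2 was 0.70 ± 0.20 (adjusted p = 0.00333), lost without C4 replicate 2 (adjusted p = 0.0567).

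X44 and S20 shared ZT22, and 5 of the 10 genes were called between them (27.1% of all genes). Oat was higher by 2.40 ± 0.30 (adjusted p = 6.88e-10), Lect2 by 1.35 ± 0.20 (adjusted p = 1.03e-07), Lgr5 by 0.78 ± 0.22 (adjusted p = 0.00314) and Znrf3 by 0.59 ± 0.18 (adjusted p = 0.00623), and Cyp2e1 was lower, with a difference of −0.78 ± 0.24 (adjusted p = 0.00607). Of these, Lgr5 (0.47, adjusted p = 0.0813) and Znrf3 (0.28, adjusted p = 0.190) lost the call with all libraries at the same median. For the growth of the PH minus sham difference from 10 to 48 h, 3 of the 10 genes were called (23.1% of all genes), which were Lgr5 and Lect2 with the values above and Rnf43 with 0.96 ± 0.35 (adjusted p = 0.0341). Scaled to the same median, Lgr5 was still called, Lect2 was at 0.50 (adjusted p = 0.184) and Rnf43 at 0.55 (adjusted p = 0.288). The Rnf43 call was also lost without any 1 of S10 replicates 2 and 3, S48 replicate 1, X10 replicates 1 and 2 and X48 replicates 1 and 3.

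One week after PH 4 of the 10 genes differed from C0, where 16.9% of all genes were called. Rnf43 was higher, at 1.30, 1.70 and 1.31 log2 RPKM, by 0.94 ± 0.23 (adjusted p = 0.00110), while the unoperated C4W livers were at 1.55 and 1.57, inside the X1W range. Oat was higher at 8.73, 8.32 and 8.74 log2 RPKM, by 0.93 ± 0.24 (adjusted p = 0.00211). Lgr5 was higher at −0.79, −0.32 and −0.27 log2 RPKM, by 0.64 ± 0.18 (adjusted p = 0.00368), and the C4W livers, at −0.55 and −0.41, were again inside that range. At the same library median the Lgr5 difference was 0.49 (adjusted p = 0.0265), under the fold limit. X1W was not tested against C4W, and the mice of X1W and X4W were 1 and 4 weeks past the age at surgery when taken. Cyp2e1 was still lower at 10.54, 10.91 and 10.56 log2 RPKM, with a difference of −0.59 ± 0.19 (adjusted p = 0.0135) that lost its call without X1W replicate 1 (adjusted p = 0.0769) or 3 (0.0898). At 4 weeks limma called 0 of the 10 genes against C0 (2 at an unadjusted p below 0.05, 5.62% of all genes called) and 0 against C4W (0 at an unadjusted p below 0.05, 0.065% of all genes called). With 2 livers a group, the 4-week differences from C4W had SEs of up to 0.45, and Tbx3, at 2.16 and 1.33 log2 RPKM in X4W and 2.46 and 2.52 in C4W, differed by −0.70 ± 0.45.

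The ligands that feed the pathway were examined because they come mainly from endothelial cells rather than hepatocytes. Of 11 Wnt ligand and R-spondin genes 7 were tested, Wnt2, Wnt4, Wnt5a, Wnt5b, Wnt9b, Rspo1 and Rspo3. Rspo3, the R-spondin of the central vein, was higher after PH than after sham surgery at 10 and 20 h. The X10 livers ran from 1.29 to 1.88 log2 RPKM with a median of 1.57, and the S10 livers from 0.10 to 0.42, without overlap. The X20 livers ran from 1.22 to 1.93 and the S20 livers from −0.09 to 1.00, again without overlap. PH minus sham was 1.12 ± 0.18 at 10 h (adjusted p = 6.99e-06), 1.03 ± 0.18 at 20 h (adjusted p = 5.83e-05) and 0.37 ± 0.18 at 48 h (adjusted p = 0.0939).

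The resting C0 livers lay between the operated groups for Rspo3, from 0.54 to 1.48 log2 RPKM with a median of 1.15. At 10 h S10 was lower than C0, with a difference of −0.69 ± 0.17 (adjusted p = 4.90e-04, and 0.12 against C0 replicates 4 to 6 alone), and X10 had a difference of 0.44 ± 0.13 (adjusted p = 0.00307), under the fold limit. At the same library median these values were −0.88 (adjusted p = 1.00e-05) and 0.24 (adjusted p = 0.109), so the sham fall made up most of the gap under that scaling. At 20 h the differences from C0 were −0.52 ± 0.17 for S20 (adjusted p = 0.0161) and 0.51 ± 0.13 for X20 (adjusted p = 8.78e-04), and at the same median −0.65 (adjusted p = 0.00197) and 0.29 (adjusted p = 0.0548). The S20 call was lost without C0 replicate 1, 8 or 9 or S20 replicate 1 or 3, where the value came to −0.28 without S20 replicate 1, and the X20 call without C0 replicate 4, 5 or 6 or X20 replicate 1 or 2.

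Wnt9b and Wnt2, Wnt ligands of the central vein endothelium, were higher after PH at 20 h. Wnt9b ran from −1.51 to 0.24 log2 RPKM in X20 and from −2.53 to −1.59 in S20, a difference of 0.79 ± 0.19 (adjusted p = 0.00255) that was not called in a fit of X20 and S20 alone (adjusted p = 0.105). Wnt2 ran from −0.48 to 0.37 log2 RPKM in X20 and from −2.05 to −0.59 in S20, a difference of 0.99 ± 0.24 (adjusted p = 0.00348), which lost its call without S20 replicate 1 (adjusted p = 0.0792). Neither gene overlapped between the groups. Against C0, Wnt9b was higher in X20 by 0.94 ± 0.14 (adjusted p = 4.29e-08) and had a difference of 0.15 ± 0.17 in S20 (adjusted p = 0.578), while Wnt2 was called in neither, with 0.45 ± 0.18 in X20 (adjusted p = 0.0317) and −0.54 ± 0.23 in S20 (adjusted p = 0.0703). At 10 h Wnt9b was higher in PH by 0.65 ± 0.19 (adjusted p = 0.0126), lost without S10 replicate 1 (adjusted p = 0.134) or 2 (0.0532), and Wnt2 had a difference of 0.68 ± 0.24 (adjusted p = 0.0516). At 48 h Wnt9b was higher by 0.74 ± 0.19 (adjusted p = 0.00126) and Wnt2 had a difference of 0.35 ± 0.25 (adjusted p = 0.254). Wnt9b lay near the detection threshold of −1.5 log2 RPKM. Its means were −2.39 in C0, −2.23 in S10, −2.03 in S20 and −2.90 in S48, all under the threshold. The PH means of Wnt9b were −1.04 in X10, −0.74 in X20 and −1.37 in X48.

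Endothelial markers (8 genes, none at 0 in any library) summed to between 15.04 and 22.5 RPKM in X10 and between 14.6 and 18.4 in S10, to between 17.2 and 26.1 in X20 and between 17.1 and 21.1 in S20, and to between 19.01 and 24.7 in X48 and between 24.4 and 29.6 in S48. At 48 h 1 of the 8 endothelial markers was called higher in PH and 0 lower, where 24.5% of all genes were higher and 2.69% lower. It was Thbd, named after its value was seen (1.165 ± 0.26, adjusted p = 1.9e-04). Clec4g had the highest mean on the tested scale, 3.241 in X48 and 3.715 in S48, and weighed most in the sum. The next highest were Cdh5 at 1.272 in X48 and Kdr at 1.628 in S48. The part of these markers in the ligand differences was not tested. Of the other ligands, Wnt4 was lower in PH at 10 h with a difference of −0.66 ± 0.20 (adjusted p = 0.0204), lost without S10 replicate 3 (adjusted p = 0.190) or X10 replicate 1 (0.0540). At 48 h Wnt5a was higher by 0.67 ± 0.18 (adjusted p = 0.00172), and Wnt4 by 0.53 ± 0.21 (adjusted p = 0.0304), which was lost without S48 replicate 1 (adjusted p = 0.138) or 2 (0.0516) or X48 replicate 5 (0.112). Both were near or under the detection threshold of −1.5 log2 RPKM. The means were −1.69 in X48 and −3.30 in S48 for Wnt5a, and −1.48 and −2.51 for Wnt4. Wnt5b and Rspo1 were not called at any of the 5 times. With all libraries at the same median, the 48 h differences were 0.48 (adjusted p = 0.0394) for Wnt9b, 0.44 (adjusted p = 0.0408) for Wnt5a and 0.27 (adjusted p = 0.318) for Wnt4, none of them past the fold limit.

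**Figure D4:**
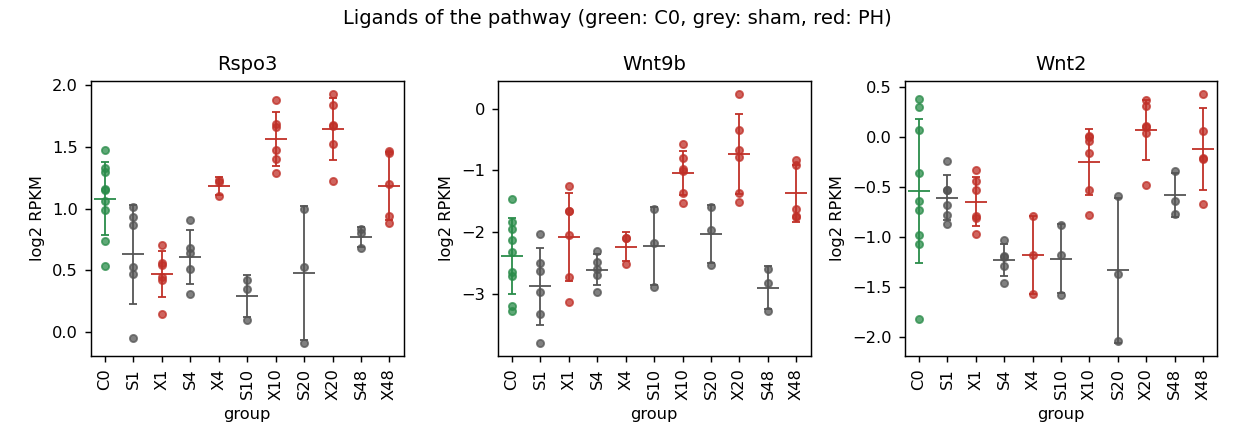
Levels (log2 RPKM, vertical axes) of Rspo3, Wnt9b and Wnt2 in every liver of C0 and of the sham and PH groups of the same 5 hours (horizontal axis), with the mean as a dash and the SD as bars. The Rspo3 livers of X10 and X20 lie above all S10 and S20 livers.

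Of the 62 genes of the wider Wnt pathway list, 45 were tested at 48 h, and 12 were higher in PH and 0 lower, with a median of 0.36 beside 0.27 over all genes. The share of higher calls is near the 24.5% of all genes. By function, 3 of 7 ligands, 4 of 10 receptors, 1 of 10 genes of beta-catenin and its destruction complex, 1 of 6 TCF/LEF factors and co-factors, 0 of 4 inhibitors and 3 of 8 general targets were higher. With the genes named after their values were seen, the receptors were Fzd1, Fzd5, Fzd6 and Fzd7, the destruction complex gene was Dvl3 and the TCF/LEF factor was Tcf7 (0.92 ± 0.20, adjusted p = 1.74e-04). Among the targets, Ccnd1 (cyclin D1) rose by 2.62 ± 0.38 (adjusted p = 4.56e-08) and Birc5 (survivin, a mitosis gene) by 5.08 ± 0.23 (adjusted p = 2.00e-29), and both are genes of the cell cycle that other signals also induce. The third was Sp5 (0.72 ± 0.25, adjusted p = 0.0134).

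Of 12 other pericentral genes 1 was higher at 48 h and 1 lower, with a median of 0.19. Over all genes 24.5% were higher and 2.69% lower, with a median of 0.27. Lhpp, a phosphatase, was higher by 1.18 ± 0.20 (adjusted p = 2.93e-06), and Cyp27a1, a bile acid enzyme named after its value was seen, was lower, with a difference of −0.92 ± 0.15 (adjusted p = 4.71e-07). Of 14 periportal genes 0 were higher and 5 lower, with a median of −0.48 beside 0.27 over all genes. The backgrounds were again 24.5% higher and 2.69% lower. Of the 8 hepatocyte markers, 0 were higher and 3 lower in the same comparison (Ttr, Tat and Tdo2, named after their values were seen), with a median of −0.24. Hal, which breaks down histidine, fell most, with a difference of −1.25 ± 0.23 (adjusted p = 1.25e-05), and the other 4, named after their values were seen, were Cyp2f2, Sds, Gls2 and Ass1. Stellate cell markers (7 genes, none at 0) summed to between 59.7 and 104 RPKM in X48 and between 47.5 and 51.3 in S48, cholangiocyte markers (6 genes, Cftr at 0 in 2 libraries) to between 31.7 and 44.4 and between 19.6 and 29.5, and macrophage markers to between 28.4 and 52.9 and between 36.2 and 60.0. Among the genes tested, 4 of 7 stellate, 1 of 5 cholangiocyte and 0 of 7 macrophage markers were called higher and 0 lower. The cholangiocyte gene, named after its value was seen, was Spp1 (0.68 ± 0.28, adjusted p = 0.0446). Its mean on the tested scale was 5.08 in X48 and 4.40 in S48. The next highest, Sox9, was at 0.92 and 0.87, so Spp1 dominated that sum. The part of all these markers in the 48 h differences was not tested.

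The courses of the genes were compared over the 19 group means, as a description across groups that share libraries and clock times. Pearson's r was highest between Rnf43 and Tbx3, at 0.851, followed by 0.791 between Axin2 and Lgr5, 0.755 between Lgr5 and Rnf43 and 0.752 between Axin2 and Rnf43. Znrf3 had r of 0.721 with Rnf43 and 0.545 with Axin2, and Lect2 had r of 0.711 with Lgr5. Glul stood apart from all of them, with r between −0.402 (Znrf3) and −0.043 (Axin2), and r between Glul and Oat was 0.265. Cyp2e1 had r between −0.488 and −0.174 with Oat, Lect2 and the 5 regulators.

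Among 10500 genes outside the 10, those with the most similar course over the 19 group means were listed for 3 of them. For Axin2 they were Nuak2 (r = 0.849), Nt5m (0.820) and Hhex (0.809). For Glul they were Slc16a10 (0.840), Il17ra (0.831) and Slc41a1 (0.795). For Cyp2e1 they were Cyp2d10 (0.914), Mup3 (0.897) and Serpina1c (0.891), of which Mup3 and Serpina1c belong to families of near-identical genes that may share reads.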

How the data were processed

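The authors aligned stranded poly(A) reads to mm9 with TopHat2 (2.0.13, using Bowtie2), counted them per Ensembl gene with featureCounts, and deposited log2 RPKM. Genes without reads are listed at the lowest value of the table, −14.29. The division by each library's total means that a change in abundant transcripts shifts all others. Of 87 labelled samples, 80 had a column named for them and were used. The 7 others were not analysed here, and 4 of the 84 columns matched no label and were not used.

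Genes above −1.5 in at least 1 library (15396) were tested with limma 3.58.1 (R 4.3.3). The response was log2(RPKM + 0.25), 1 model covered all 19 groups, and the prior variance was allowed to follow expression. Benjamini-Hochberg adjustment ran over all genes of a comparison. The 95% confidence intervals are those of limma. Each sample is 1 liver. Depth was estimated by taking the most frequent low value of RPKM times exon length as 1 read. Because those values were not near whole numbers in every library, no test was run on reads. The steps were tested on simulated data. Positions are GENCODE genes of mm9. Tables and figures were made with Python 3.11.15, pandas 2.3.3 and matplotlib 3.10.9.

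The 10 genes and the other lists were chosen with earlier results of these data known. The rule for other named genes was every Wnt ligand or R-spondin with a group mean above −1.5, every list gene called at 48 h beyond a log2 fold of 1, and the 3 genes most like Axin2, Glul and Cyp2e1. The alternatives were other pseudocounts, filters, scaling, thresholds, subsets of libraries, a replicate block, and each library left out in turn.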

Additional observations from a re-analysis of the deposited data

Results flagged for a closer look

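Each of the 10 genes was examined in each group of 4 to 10 livers, which gave 80 sets of values. In 9 of these sets 1 liver lay apart from the others by Dixon's criterion at the 95% level. Chance gives about 1 in 20 sets, but sets of different genes share the same livers and are not independent. For Glul the livers that lay apart were S4 replicate 4 at 7.86 log2 RPKM (low) and X36 replicate 2 at 7.47 (low). For Axin2 they were C0 replicate 7 at −1.23 (low), X1 replicate 2 at −2.70 (low) and X10 replicate 3 at 0.33 (high). For Oat they were X36 replicate 2 at 7.94 (low) and X48 replicate 3 at 9.54 (high). Lgr5 in X36 replicate 6 was at 0.39 (high), and Znrf3 in X36 replicate 1 was at −0.13 (low). Glul and Oat thus shared X36 replicate 2 as their lowest liver of that group.

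The limma test of the change in PH minus sham between 10 h and 48 h called 3 of the 10 genes, where 23.1% of all genes were called. The change was 1.70 in Lgr5, 1.00 in Lect2 and 0.96 in Rnf43. With every library at the same median only Lgr5 kept its call (Lect2 adjusted p = 0.184, Rnf43 adjusted p = 0.288). The Rnf43 call was also lost with some 1 library left out. For Lgr5 the PH minus sham difference changed sign, from −0.78 at 10 h to 0.92 at 48 h.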

How the results depend on the processing

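Of 113 called values of the 10 genes, 50 were called under every alternative except the strictest threshold, 33 were lost with some 1 library left out, and 0 reversed their direction. The number of the 10 genes called in PH against sham at 4 h went from 1 to 2 with a pseudocount of 0.1 or with every library at the same median, and to 0 in a fit of only the 2 groups compared. At 1 h it was 1 with replicates 1 to 3 alone, and at 20 h it went from 4 to 1 in the fit of only the groups compared and to 2 with replicates 4 to 6 alone. At an adjusted p below 1e-07 it was 0 at 4, 10, 20 and 48 h and 0 for the change from 10 to 48 h, while 10 of 57 calls passed for the PH groups against C0, 1 of 18 for the sham groups and 2 of 21 for the comparisons at a shared hour. With every library at the same median the change from 10 to 48 h gave 1 call instead of 3, and the PH groups against C0 gave 40 instead of 57. At 48 h the Wnt pathway list gave 12 calls, 4 with a pseudocount of 1, 3 at the same median, 21 with no fold threshold and 2 at an adjusted p below 1e-07. The other pericentral genes gave 2 calls, 4 at the same median and 0 at the strictest threshold, and the periportal genes 5, 9 and 0. Leaving out 1 library at a time gave 0 to 0 calls at 1 h, 0 to 2 at 4 h, 2 to 3 at 10 h, 3 to 4 at 20 h, 4 to 6 at 48 h, 51 to 59 against C0 after PH, 15 to 19 after sham surgery, 20 to 24 at a shared hour, 2 to 4 for the change from 10 to 48 h, and 9 to 13, 2 to 4 and 3 to 5 in the 3 lists. The share of all genes called under each alternative is not given beside these counts. The cause of these changes was not tested. Against C0, the share of all calls that were higher ran from 29.5% (X4) to 80.1% (X72) after PH in the values as deposited and from 28% (X4W) to 51.1% (X1) at the same median. The replicate numbers did not pair the samples (r between −0.186 and 0.273 for livers with the same number). With the replicate block 50 calls were found against C0 after PH, 18 after sham surgery, 22 at a shared hour, 6 at 48 h, 11 in the Wnt list, 2 and 6 in the other 2 lists, and the same numbers as without it elsewhere. With a pseudocount of 1 the Wnt9b differences between PH and sham, 0.29 at 10 h, 0.38 at 20 h and 0.30 at 48 h, fell under the fold limit. Lgr5, whose lowest library held about 18.3 estimated reads, is the gene most limited by depth.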
